A study of Mus musculus with 12 samples.

Results

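The oxidative phosphorylation machinery of the mitochondrial inner membrane is built from subunits of the nuclear and the mitochondrial genome, and most of them come from nuclear genes. The nuclear genes examined here were those whose symbol starts with Nduf (complex I, NADH dehydrogenase, and its assembly factors), Uqcr (complex III, ubiquinol-cytochrome c reductase), Atp5 (the ATP synthase) or Cox followed by 4 to 8 (complex IV, cytochrome c oxidase), together with Sdha, Sdhb, Sdhc and Sdhd (complex II, succinate dehydrogenase) and Cyc1 (cytochrome c1 of complex III). Names containing -ps, which mark pseudogenes, were left out. Of the 22264 gene symbols in the deposited table, 82 met this rule, and they held 381 of the 126464 H3K27ac intervals.

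Electrons enter the chain at complexes I and II, pass through complexes III and IV to oxygen, and the proton gradient built on the way drives the ATP synthase. The nuclear subunit genes are active in nearly all cells, and many of their promoters are known to carry binding sites for the ETS family factor GABP (also called NRF2), for NRF1 and for YY1. A few subunits of complex IV exist as a common isoform and as an isoform restricted to muscle, testis, lung or low oxygen. H3K27ac, acetylation of lysine 27 of histone H3, marks active promoters and enhancers.

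The mark was measured by ChIP-seq in 4T1 cells, a wild-type mouse mammary carcinoma line of epithelial origin. Cells were exposed for 48 h to vehicle, acetate at 5 mM, etomoxir at 50 µM, etomoxir + acetate, etomoxir + SB204990 (50 µM of each inhibitor) or etomoxir + SB204990 + acetate, with 2 libraries per treatment and 12 in all. Etomoxir blocks carnitine palmitoyltransferase 1 and so the mitochondrial import of long-chain fatty acids, SB204990 blocks ATP citrate lyase, which makes acetyl-CoA from citrate, and acetate is another source of acetyl-CoA, so the comparisons ask how the acetyl-CoA supply bears on H3K27ac at these genes. Human chromatin (7.5%) was present in all libraries as a spike-in. The library names end in 1 of a pair of suffixes, called set 1 and set 2 here, whose meaning the labels do not give. No label says that the libraries of a treatment came from separate cultures, so the p-values below measure the spread between these libraries, which may be technical.

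Each deposited value was the read count of an interval multiplied by a spike-in factor of the library, and is called the scaled signal. The values of a gene were summed over the intervals that the authors' annotation names for it. The libraries held 7179165 to 16676442 reads in intervals, and their factors ran from 0.398 to 1. The etomoxir + SB204990 libraries stood furthest apart as a pair. Set 1 had the lowest factor of all (0.398), and set 2 had a factor of 1 and the fewest reads (7179165). The ratio of the scaled signal in set 2 to that in set 1 for this treatment had a median of 2.26 over the 16 tested members with a mean below 100 and of 1.29 over the 17 members with a mean of 500 or more. Comparisons that use this pair are therefore also given without one of these libraries. Of the epithelial marker genes that were checked, Epcam, Cdh1, Krt8, Krt14, Grhl2, Esrp1 and Cldn4 had signal (7 of 8, with medians over libraries of 482 to 3689), and no interval was named for Krt18. Of 7 markers of other cell types, 5 were named, with medians of 13.8 (Cd3e, at percentile 16.8 of all symbols) to 668 (Pecam1, at percentile 85.1), and Alb and Myod1 were not named.

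The promoter sequences below are examples from members that hold a motif match, which not all members do. RefSeq promoters (GRCm38.p6, the build of the mm10 intervals, from 250 bases before to 50 bases after the start) were found for 66 of the 82 members. The 3 motifs searched on both strands were CCGGAAG for ETS factors and GABP, GCGCANGCG for NRF1, and AAGATGGCG for YY1. The ETS motif was found in 17 of the 66 members (25.8%) and in 12.9% of 17491 protein-coding genes. The NRF1 motif was found in 19 members (28.8%) against 9.63% of the coding genes, and the YY1 motif in 8 members (12.1%) against 2.14%. At least 1 of the 3 motifs was present in 37 members (56.1%) and in 21.8% of all coding genes. A match is a description of the letters and not of binding.

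The 250 bases before the start are printed here for members of complexes I, II and III and of the ATP synthase, 5' to 3' on the strand of the gene, with motif letters of either strand in capitals (CTTCCGG is the ETS motif read from the other strand). Those of Uqcrh (hinge subunit of complex III, chr4:116075071-116075320, minus strand) and Sdhd (membrane anchor of complex II, chr9:50603850-50604099, minus strand) are shown because the acetylated interval over each start carries the name of a neighbouring gene. Sdha (flavoprotein of complex II, chr13:74350241-74350490, minus strand) and Ndufb4 (accessory subunit of complex I, chr16:37654369-37654618, minus strand) each hold 3 NRF1 matches. Ndufa11 (accessory subunit of complex I, chr17:56717512-56717761, plus strand) holds an NRF1 match that reads on both strands with an overlap. Atp5l (subunit g of the ATP synthase, chr9:44920743-44920992, minus strand) holds an ETS and an NRF1 match within these bases. In Uqcrh and in Sdhd the ETS letters begin 10 and 46 bases before the start.
Uqcrh: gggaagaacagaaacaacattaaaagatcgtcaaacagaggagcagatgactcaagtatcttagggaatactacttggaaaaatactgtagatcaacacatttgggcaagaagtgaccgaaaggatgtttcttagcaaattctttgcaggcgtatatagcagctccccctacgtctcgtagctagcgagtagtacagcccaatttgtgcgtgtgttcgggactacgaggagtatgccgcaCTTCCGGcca
Sdhd: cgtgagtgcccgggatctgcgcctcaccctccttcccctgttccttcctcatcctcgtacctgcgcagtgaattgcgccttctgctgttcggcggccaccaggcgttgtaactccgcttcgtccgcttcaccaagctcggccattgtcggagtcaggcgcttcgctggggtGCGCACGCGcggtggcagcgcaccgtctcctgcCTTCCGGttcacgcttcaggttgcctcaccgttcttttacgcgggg
Sdha: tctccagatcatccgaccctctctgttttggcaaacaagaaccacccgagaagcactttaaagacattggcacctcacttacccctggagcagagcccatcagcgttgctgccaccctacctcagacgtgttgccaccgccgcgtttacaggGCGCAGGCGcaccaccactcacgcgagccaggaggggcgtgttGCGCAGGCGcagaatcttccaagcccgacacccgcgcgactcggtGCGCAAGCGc
Ndufb4: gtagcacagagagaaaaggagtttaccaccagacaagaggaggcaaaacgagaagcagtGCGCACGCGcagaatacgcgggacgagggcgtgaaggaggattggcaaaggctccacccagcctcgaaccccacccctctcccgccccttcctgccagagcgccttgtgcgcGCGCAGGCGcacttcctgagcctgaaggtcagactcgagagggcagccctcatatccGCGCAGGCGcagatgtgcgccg
Ndufa11: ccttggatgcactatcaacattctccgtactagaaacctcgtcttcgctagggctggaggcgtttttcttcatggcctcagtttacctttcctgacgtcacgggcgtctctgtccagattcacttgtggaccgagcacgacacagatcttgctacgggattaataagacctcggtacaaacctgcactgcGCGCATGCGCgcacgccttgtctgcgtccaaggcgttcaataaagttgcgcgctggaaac
Atp5l: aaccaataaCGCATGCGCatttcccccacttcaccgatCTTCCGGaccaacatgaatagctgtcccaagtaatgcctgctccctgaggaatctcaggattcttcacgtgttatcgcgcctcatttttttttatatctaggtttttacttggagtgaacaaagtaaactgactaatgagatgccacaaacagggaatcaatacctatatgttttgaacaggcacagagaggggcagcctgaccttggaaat

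Most of these starts lay in acetylated chromatin. A protein-coding GENCODE start of 76 of the 82 members (92.7%) fell inside an interval of the table. The rule admits only genes that the table names for at least 1 interval, and of the 15488 coding genes so named 70.2% had a start in an interval. For 58 of these members the interval was named for the gene itself (70.7% of the members, against 53.9% of the named coding genes), and for 18 it was named for another gene. Each interval of the table carries 1 gene name. The members' start intervals held a start of at least 1 further coding gene entry in 47.4% of cases. Any start of a gene was counted there, and for Atp5o the further entry is another entry of the same name. Over all coding genes with a start in an interval the share was 30.9%. Each gene was counted there only at its strongest start interval, so these shares cannot be set against each other. Atp5j shares its interval with Gabpa, which encodes the DNA-binding subunit of GABP, Sdha with Ccdc127, Ndufs6 with Mrpl36 (a mitochondrial ribosomal protein) and Sdhd with Timm8b (a chaperone of mitochondrial import). The starts of Atp5k, Cox6b2, Cox7b2, Cox8b, Ndufa8 and Uqcrc1 lay in no interval. Such a start can still lie close to an interval. That of Atp5k (chr5:108434448) lies just outside an interval named for the gene (chr5:108431999-108434407), which had a mean scaled signal of 119. For Uqcrc1, a core subunit of complex III, the only interval named for it (chr9:108936665-108942655) begins just after its start, and its mean scaled signal was 239.

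The naming changed the apparent signal of several core subunits widely. The start of Uqcrh lay in an interval of chr4:116071238-116080287 that is named for Lrrc41 and had a mean scaled signal of 664, whereas the interval named for Uqcrh (chr4:116070105-116070360) had 4.37. The sum under the name Cyc1 was 32.2, and the interval over its start (chr15:76342045-76353692), named for Sharpin and holding also the starts of Sharpin and Maf1, had 531. Cox4i1, the common isoform of subunit IV of cytochrome c oxidase, had 88.6 under its own name and 807 in the interval over its start (chr8:120656674-120674015, named for Emc8). The iron-sulfur subunit gene Sdhb had 130 under its name and 1614 over its start (chr4:140943855-140969646, named for the predicted gene Gm13031). In complex I the core subunits Ndufs8, Ndufs7, Ndufv1 and Ndufs1 had 35.3, 121, 51.6 and 125 under their own names, against 1449, 1536, 664 and 550 over their starts. The contrast ran the other way for Atp5o, the oligomycin sensitivity subunit, whose named sum of 1781 came to 66.8% from 1 intergenic interval (chr16:91957080-91977249), while the interval over its start had 194. The scaled signal in a shared interval cannot be divided between the genes whose starts it covers. Both quantities are therefore given below, the sum under the name as the main value and the interval over the start as an alternative chosen after the data were seen.

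**Figure D1:**
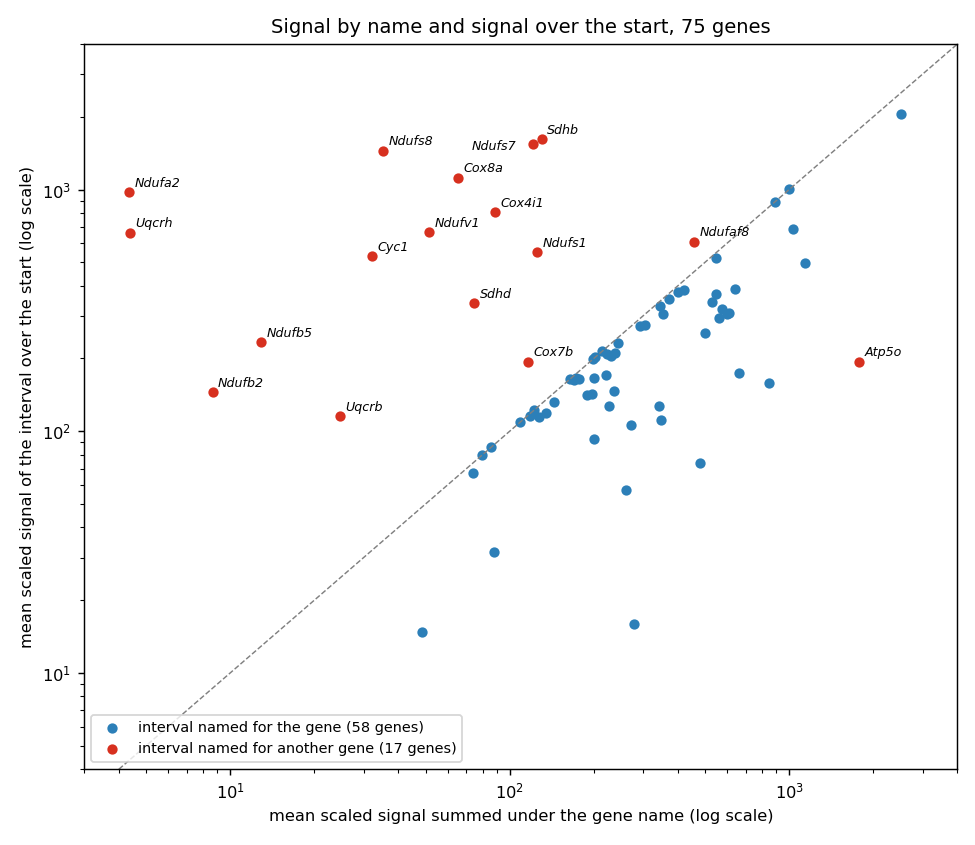
Mean scaled signal over 12 libraries summed under the gene name (x axis, log scale) and in the interval over the GENCODE start (y axis, log scale) for 75 of the 76 members with a start in an interval. Blue points are the 58 genes whose start interval carries their own name, red points 17 of the 18 whose start interval carries another name, and the dashed line marks equal values. Uqcrh sits at 4.37 by name and 664 over its start, and Atp5o at 1781 and 194.

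A further 14 listed subunit and assembly genes had no interval under their names, and the starts of 10 of them lay in intervals named for neighbours. Among these were Atp5b, the catalytic beta subunit of the ATP synthase (mean scaled signal of 1166 in an interval named for Baz2a), Uqcr11 (1738, named for Mbd3) and Cox6a1 (999, named for Gatc). They are outside the 82 members and enter no count of members below.

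Levels were compared between genes only per kb of the interval over the start. The 76 start intervals had a median of 38.4 scaled signal per kb (middle quartiles 31.7 to 48.8), against 39.1 (29.0 to 50.6) over 12005 coding genes, and 33 of the 76 were above the median of all. The highest per kb was Ndufb9, an accessory subunit of complex I, at 132. Among the next were Uqcrh (73.3), Ndufs1 (73.3) and Atp5g2, a c-ring subunit gene (71.7), which lie too close for an order to be read among them. By role the medians were 48.5 for the 7 complex I core subunits, 32.5 for 25 accessory subunits, 31.6 for 6 assembly factors, 40.1 for 4 complex II genes, 38.5 for 7 complex III genes, 48.3 for 10 common complex IV genes and 57.5 for the 3 c-ring genes.

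The restricted isoforms of complex IV stood at the bottom. Cox7a1, known as the heart and muscle isoform, had 14.4 per kb over its start, Cox4i2, known from lung and hypoxic cells, had 15.1, and Ndufa4l2, a hypoxia-induced relative of Ndufa4, had 16.6. These were the 3 lowest of the 76 members, and their common counterparts Cox7a2, Cox4i1 and Ndufa4 had 43.4, 46.5 and 63.1. The starts of Cox6a2 (which, like Cox6a1, has no interval under its name), Cox6b2, Cox7b2 and Cox8b lay in no interval, while those of Cox6a1, Cox6b1, Cox7b and Cox8a had 37.3, 20.6, 21.6 and 50.0 per kb. Thus in the 3 pairs with an interval over both starts the common isoform had the higher value. In the other 4 pairs, 1 of which (Cox6a1 and Cox6a2) is outside the members, only the common isoform had an interval over its start. Away from their starts, Cox6b2, Cox7b2 and Cox8b had 2, 2 and 5 intervals under their names. The intervals over the starts of Cox4i1, Cox6a1, Cox7b and Cox8a also carry the name of a neighbouring gene. Under their own names Cox4i2 held 17 intervals with a sum of 277, of which its start interval made up 5.73%, and the largest share (27.6%) came from an intergenic interval.

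**Figure D2:**
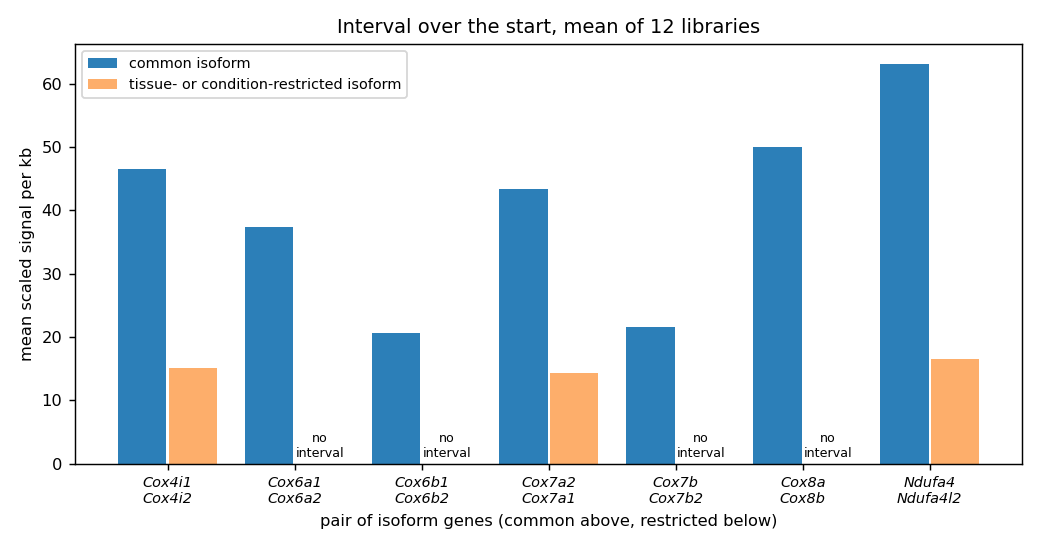
Mean scaled signal per kb (12 libraries) of the interval over the start for 7 pairs of common (blue) and restricted (orange) isoform genes. The restricted isoforms are at 14.4 to 16.6 per kb or have no interval over their start, and the common isoforms are at 20.6 to 63.1 per kb.

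Of the 82 members, 78 had a mean sum of at least 10 over the 12 libraries and were tested. Ndufa2, Ndufb2, Uqcrh and Cox7b2 were below this limit. The main tests on named sums used limma on log2(scaled signal + 1) over 19458 gene symbols with Benjamini-Hochberg adjustment, and a member is called at an adjusted p under 0.05. The fold changes are on that log2 scale, which understates the change of low genes. Medians of named sums are also given with other scalings. Median-of-ratios scaling sets the typical gene to no change, and depth-free scaling takes each value as a share of its library's reads times the factor. The members' sums made up 0.280% to 0.298% of all scaled signal in each of the 12 libraries.

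Summed over the members, the scaled signal was 19592 and 22852 in the vehicle libraries (set 1 and set 2), 28216 and 28566 with acetate, 23524 and 23055 with etomoxir, 40247 and 37540 with etomoxir + acetate, 15715 and 21038 with etomoxir + SB204990, and 24521 and 32034 with etomoxir + SB204990 + acetate. Each treatment with acetate was above its partner without acetate in both sets, and the libraries of partner treatments did not overlap. Of the 78 tested members, 64 (82.1%, against 70.4% of all genes tested) were highest in the etomoxir + acetate library of set 1 and 13 (16.7%, against 20.7%) in that of set 2. In the etomoxir + SB204990 library of set 1, 70 members (89.7%, against 85.7% of all genes) were lowest. The first of these libraries has a factor of 1 and the last the lowest factor (0.398).

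**Figure D3:**
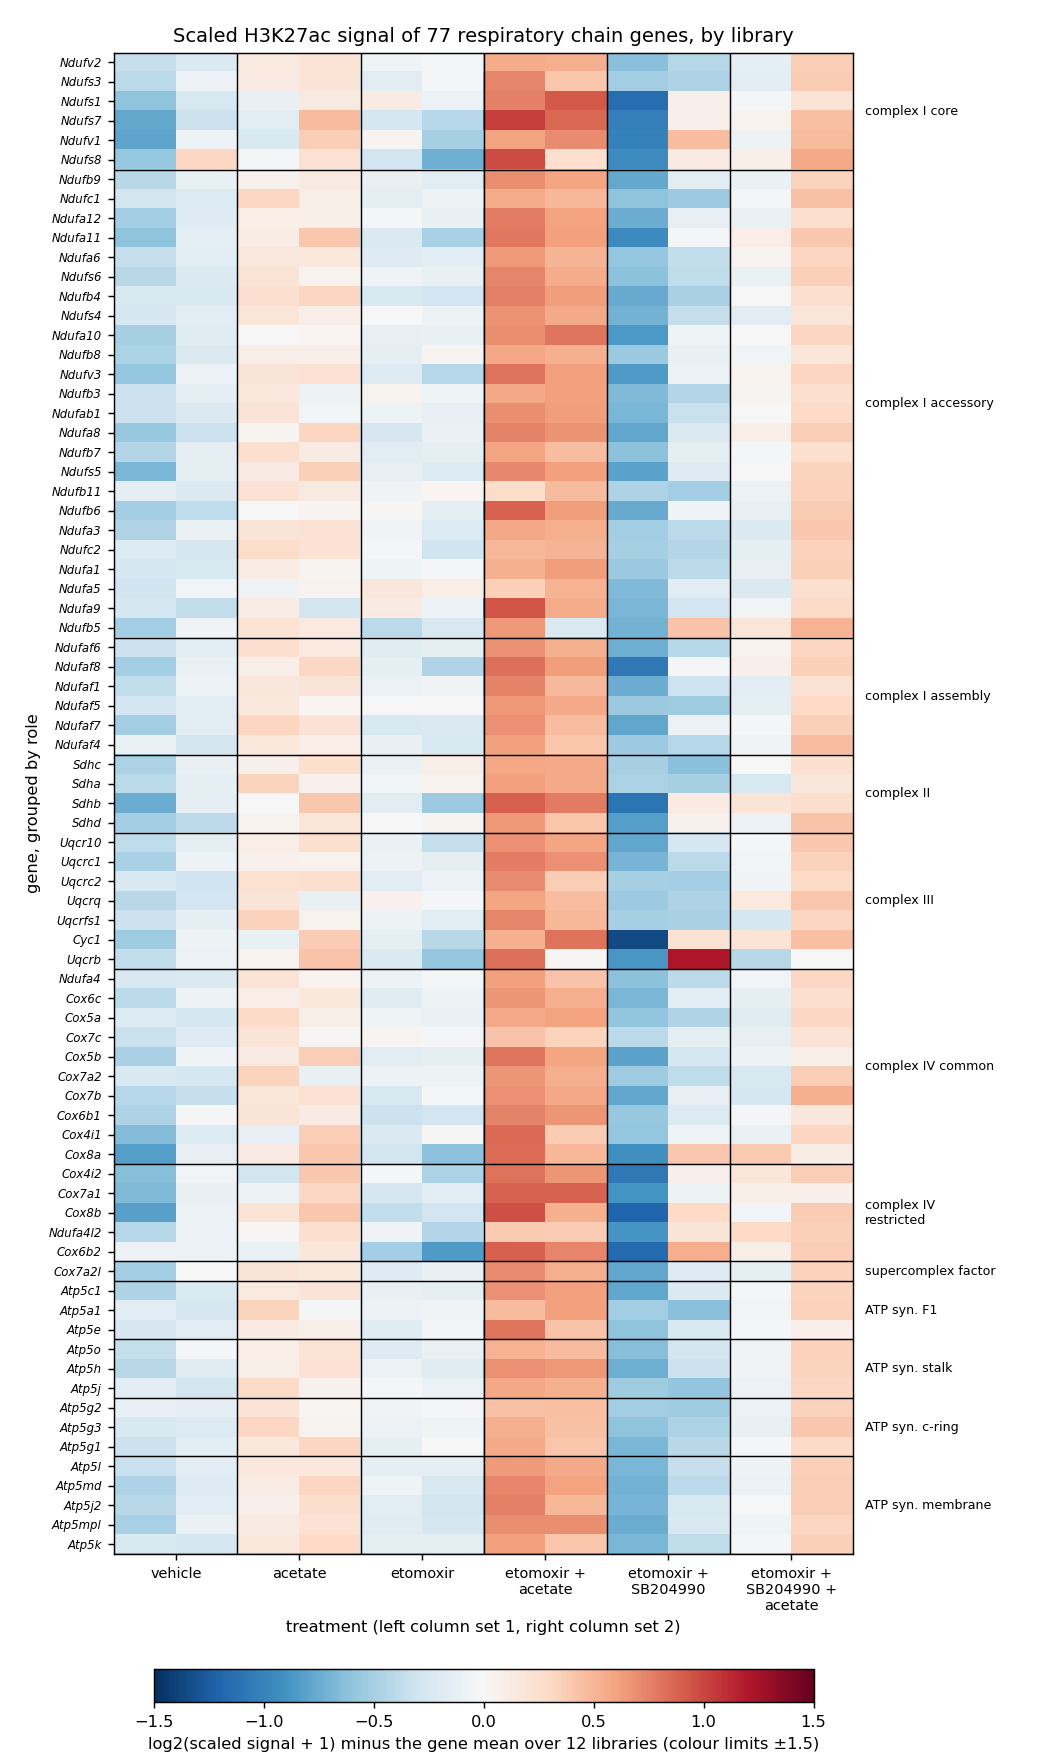
Heat map of log2(scaled signal + 1) minus the mean over 12 libraries for 77 of the 78 tested members (rows, grouped by role) in each library (columns, set 1 left and set 2 right within a treatment). The etomoxir + acetate columns are red and the etomoxir + SB204990 column of set 1 is blue for nearly every gene on this spike-in scale, and 64 of the 78 members have their highest value in the first of these columns.

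Examples from complexes I, II and III follow. Ndufb9 had 1815 and 2237 in vehicle, 2530 and 2652 with acetate, 2230 and 2167 with etomoxir, 3908 and 3643 with etomoxir + acetate, 1417 and 2156 with etomoxir + SB204990, and 2255 and 3039 with all 3 compounds. Over the start of Cyc1 the values were 412 and 420 in vehicle, 657 and 571 with acetate, 443 and 442 with etomoxir, 816 and 727 with etomoxir + acetate, 316 and 379 with etomoxir + SB204990, and 501 and 684 with all 3 compounds. Sdha, whose single interval covers its start, had 120 and 143 in vehicle, 200 and 166 with acetate, 154 and 164 with etomoxir, 243 and 235 with etomoxir + acetate, 114 and 112 with etomoxir + SB204990, and 135 and 179 with all 3 compounds. In each of these 3 genes the acetate libraries lay above their partners without acetate with no overlap, and the etomoxir + acetate libraries were the highest.

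In acetate- vs. vehicle-treated cells no member was called in the main fit. The members' median log2 fold change was 0.44 (1.36-fold) on the spike-in scale, 0.22 with depth-free and -0.04 with median-of-ratios scaling. Both acetate libraries were above both vehicle libraries for 70 members (89.7%), against 84.2% of all genes. No member passed the adjusted threshold by limma (lowest adjusted p = 0.101), as was the case for 0% of all genes, while 25 members (32.1%, against 42.9% of all genes) had an unadjusted p under 0.05. The other tools called 0 members (edgeR, 0% of all genes) and 15 members (DESeq2, 19.2%, against 27.6% of all genes). Ndufs7, a core subunit that carries an iron-sulfur cluster, had 65.0 and 88.7 in vehicle and 99.6 and 154 with acetate, a log2 fold change of 0.70 ± 0.32 (SE, n = 2 per group, adjusted p = 0.108, limma). The values of Cox8b gave 0.75 ± 0.38 and those of Ndufa5, an accessory subunit, 0.17 ± 0.30. With 1 library left out the value of Ndufs7 ran from 0.39 to 1.01, that of Cox8b from 0.39 to 1.12 and that of Ndufa5 from 0.048 to 0.30, and the members' median from 0.32 (without vehicle of set 1) to 0.56 (without vehicle of set 2). This comparison depended on the spread estimate of all 6 treatments. Leaving out either etomoxir + SB204990 library gave 45 called members in each case (57.7%, against 61.1% and 61.2% of all genes), and leaving out either etomoxir + SB204990 + acetate library gave 3 (3.85%, against 11.9%).

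Over the starts the same comparison gave calls. There, acetate was higher than vehicle for 43 of the 76 members tested (limma, 11783 genes tested), against 68.7% of all coding starts, and the median log2 fold change was 0.42 (0.46 over all starts). All 7 core subunits of complex I were among the 43, with log2 fold changes of 0.42 to 0.54, as were 11 of 25 accessory subunits, 3 of 4 complex II genes, 4 of 7 complex III genes and 5 of 10 common complex IV genes. Over the start of Cox4i1 the scaled signal was 595 and 677 in vehicle and 901 and 919 with acetate. Over the start of Uqcrh it was 588 and 529 in vehicle and 811 and 714 with acetate. In both cases the acetate libraries were above the vehicle libraries with no overlap, as in 71 of the 76 members (93.4%) and in 92.4% of all 12005 coding starts.

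Acetate was also compared on top of etomoxir. Of the 78 tested members, 69 were higher in etomoxir + acetate vs. etomoxir and none was lower, against 78.2% of all genes higher. The median log2 fold change was 0.74 (0.78 with depth-free and -0.05 with median-of-ratios scaling), and 0.79 over all genes. Both etomoxir + acetate libraries were above both etomoxir libraries for 78 members (98.3% of all genes). The called members included 6 of 7 complex I core subunits, 21 of 24 accessory subunits, 6 of 6 assembly factors, 3 of 4 complex II genes, 5 of 7 complex III genes, 9 of 10 common and 4 of 5 restricted complex IV genes, Cox7a2l (a factor of respiratory supercomplexes) and 14 of 14 ATP synthase genes.

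Ndufs7 and Sdhb were among the members with the largest called changes and a mean of at least 50. Ndufs7 had 92.6 and 82.5 with etomoxir and 228 and 202 with etomoxir + acetate, which is 1.29 ± 0.32 (SE, n = 2 per group) on the log2 scale (adjusted p = 0.00306, limma). Sdhb had 108 and 82.5 with etomoxir and 227 and 208 with etomoxir + acetate, which is 1.20 ± 0.32 (adjusted p = 0.0038, limma). Both genes are among those whose start lies in an interval of another name, and over their starts the log2 fold changes were 0.89 and 0.50. At the other end Ndufa5 (0.31 ± 0.30) and Cox7c, a small complex IV subunit (0.37 ± 0.22), were not called. The number of members called was 18 (23.1%, against 28.8% of all genes) without the etomoxir + acetate library of set 1. It was 27 (34.6%, against 37.9%) and 39 (50%, against 52.3%) when the etomoxir library of set 2 or of set 1 was left out, and 75 of 76 over the starts (94.2% of all starts).

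In the presence of both inhibitors acetate raised 44 of the 78 members, against 57.7% of all genes, and lowered none. The median log2 fold change was 0.62 (0.64 over all genes, and 0.21 and -0.01 over the members with depth-free and median-of-ratios scaling), and both libraries with acetate were above both without it for 62 members (70.3% of all genes). The called members were 2 of 7 complex I core subunits, 15 of 24 accessory subunits, 5 of 6 assembly factors, 1 of 4 complex II genes, 4 of 7 complex III genes, 2 of 10 common complex IV genes, Cox4i2, Cox7a2l and 13 of 14 ATP synthase genes. Uqcrq, a small complex III subunit, had 142 and 150 with etomoxir + SB204990 and 229 and 277 with acetate added, a log2 fold change of 0.78 ± 0.22 (adjusted p = 0.00938, limma). Ndufc1, an accessory subunit of complex I, had 538 and 561 against 804 and 1114, also 0.78 ± 0.19 (adjusted p = 0.00653, limma). Cox4i2 had 124 and 275 against 295 and 337, which gave 0.77 ± 0.30 (adjusted p = 0.0318, limma), and Cox7c gave 0.32 ± 0.22 (0.16 to 0.49 with 1 library left out) and was not called. The value of Cox4i2 was 0.20 (not called) without the etomoxir + SB204990 library of set 1 and 1.34 when that of set 2 was left out, and it was also not called without either etomoxir + SB204990 + acetate library (0.87 and 0.67). Uqcrq (0.65) and Ndufc1 (0.55) were not called without the etomoxir + SB204990 + acetate library of set 2.

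Single libraries decided this count. Without the etomoxir + SB204990 library of set 2 the number was 74 higher (94.9%, against 91.4% of all genes) and the members' median 0.82. Without that of set 1 it was 11 higher (14.1%, against 19.1%) and 1 lower (1.28%, against 4.2%), with a median of 0.37. Without the etomoxir + SB204990 + acetate library of set 2 no member and 0% of all genes were called, with 29.5% of the members and 30.8% of all genes at an unadjusted p under 0.05, and the median was 0.43. Uqcrb, a complex III subunit with the lowest log2 fold change of the tested members (-0.38), had 11.9 and 54.0 with etomoxir + SB204990 and 16.8 and 22.5 with acetate added, so its sign rests on the set 2 library. Over its own start, in an interval of another name, Uqcrb gave 0.64 ± 0.20. Over the starts 72 of 76 members were higher (92.9% of all starts).

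Averaged over the 3 inhibitor backgrounds, acetate raised 75 of the 78 members, against 88.2% of all genes, and 76 of 76 over the starts (99.2% of all starts). The median log2 fold change was 0.59 (0.63 over all genes), and it ran from 0.30 (Uqcrb and Ndufa5) to 0.90 (Ndufs7). The flavoprotein subunit Ndufv1 of complex I gave 0.62 ± 0.24, the largest subunit Ndufs1 0.62 ± 0.18, Sdha 0.50 ± 0.14, Sdhb 0.85 ± 0.19, Uqcrc1 0.63 ± 0.13, Cyc1 0.76 ± 0.27, Cox4i1 0.57 ± 0.18, Cox5a (subunit Va of complex IV) 0.56 ± 0.12 and the ATP synthase alpha subunit Atp5a1 0.57 ± 0.12, each called by limma. Leaving out the etomoxir + SB204990 library of set 1 lowered Ndufv1 to 0.38 and Cyc1 to 0.50, both still called, and Ndufv1 was not called in 4 of the other fits that left out 1 library (vehicle set 1, acetate set 2, etomoxir set 2 and etomoxir + SB204990 + acetate set 2, at 0.50 to 0.53). Ndufs7 (0.90 ± 0.18) and Sdhb were among the highest of the members with a mean of at least 50, and Ndufa5 (0.30 ± 0.17, not called), Cox7c (0.35 ± 0.13) and Ndufb11, an accessory subunit of complex I (0.45 ± 0.13), the lowest. Over the starts the roles lay between 0.53 (complex II, 4 genes) and 0.65 (complex I core, 7 genes) in their medians, apart from the 3 restricted isoforms, which had 0.85 at low signal. Of lists of related genes, 33 of 34 further assembly factors, 4 of 4 electron carriers and regulators, 9 of 11 transcription regulators and 11 of 11 TCA cycle enzymes were higher, against the same 88.2% of all genes. The 5 tested restricted isoforms were also called, with 0.72 ± 0.18 for Cox7a1, 0.72 ± 0.17 for Cox4i2, 0.81 ± 0.22 for Cox8b, 0.72 ± 0.25 for Cox6b2 and 0.57 ± 0.22 for Ndufa4l2 (limma). Their sums were low, and the etomoxir + SB204990 libraries differed widely in them, as in Cox6b2 (16.7 in set 1 and 57.0 in set 2) and Cox8b (32.3 and 92.0). Cox6b2 gave 0.44 without the first of these libraries and was not called without etomoxir + SB204990 + acetate of set 2 (0.67), and Ndufa4l2 was not called without vehicle of set 1, acetate of set 2 or etomoxir of set 2 (0.50 to 0.53). Without the etomoxir + SB204990 library of set 1 or that of set 2, 75 and 78 of the 78 members were called in the average (96.2% and 100%, against 86.7% and 98.5% of all genes). The regulators Nrf1 and Yy1 gave 0.47 ± 0.11 and 0.68 ± 0.11.

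The increase was shared with the genome, and no member was called relative to it. Scaling by the median of ratios moved the median of all genes from 0.48, 0.79, 0.64 and 0.63 in the 4 acetate comparisons above to 0, 0, 0.01 and 0. The members' medians then became -0.04, -0.05, -0.01 and -0.04. No member was called by limma in any of the 9 comparisons under this scaling, with 0, 5, 2 and 6 members at an unadjusted p under 0.05 in the 4 acetate comparisons (0%, 6.41%, 2.56% and 7.69%, against 3.2%, 6.29%, 4.32% and 11.4% of all genes). Among members with a mean of at least 50 the relative average effect was among the highest for Ndufs7 (0.27) and Sdhb (0.22) and lowest for Ndufa5 (-0.33, adjusted p = 0.155), Cox7c (-0.28, adjusted p = 0.166) and Ndufb11 (-0.18, adjusted p = 0.591). Over its start Sdhb gave -0.20 and Ndufs7 0.09, so the high relative value of Sdhb was found in the intervals under its name and not over its start. Cox7c gave -0.21 over its start, and the 1 interval of Ndufa5 is its start interval, so its named sum and start value are the same data. With depth-free scaling the members' average effect had a median of 0.39 and no member was called.

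**Figure D4:**
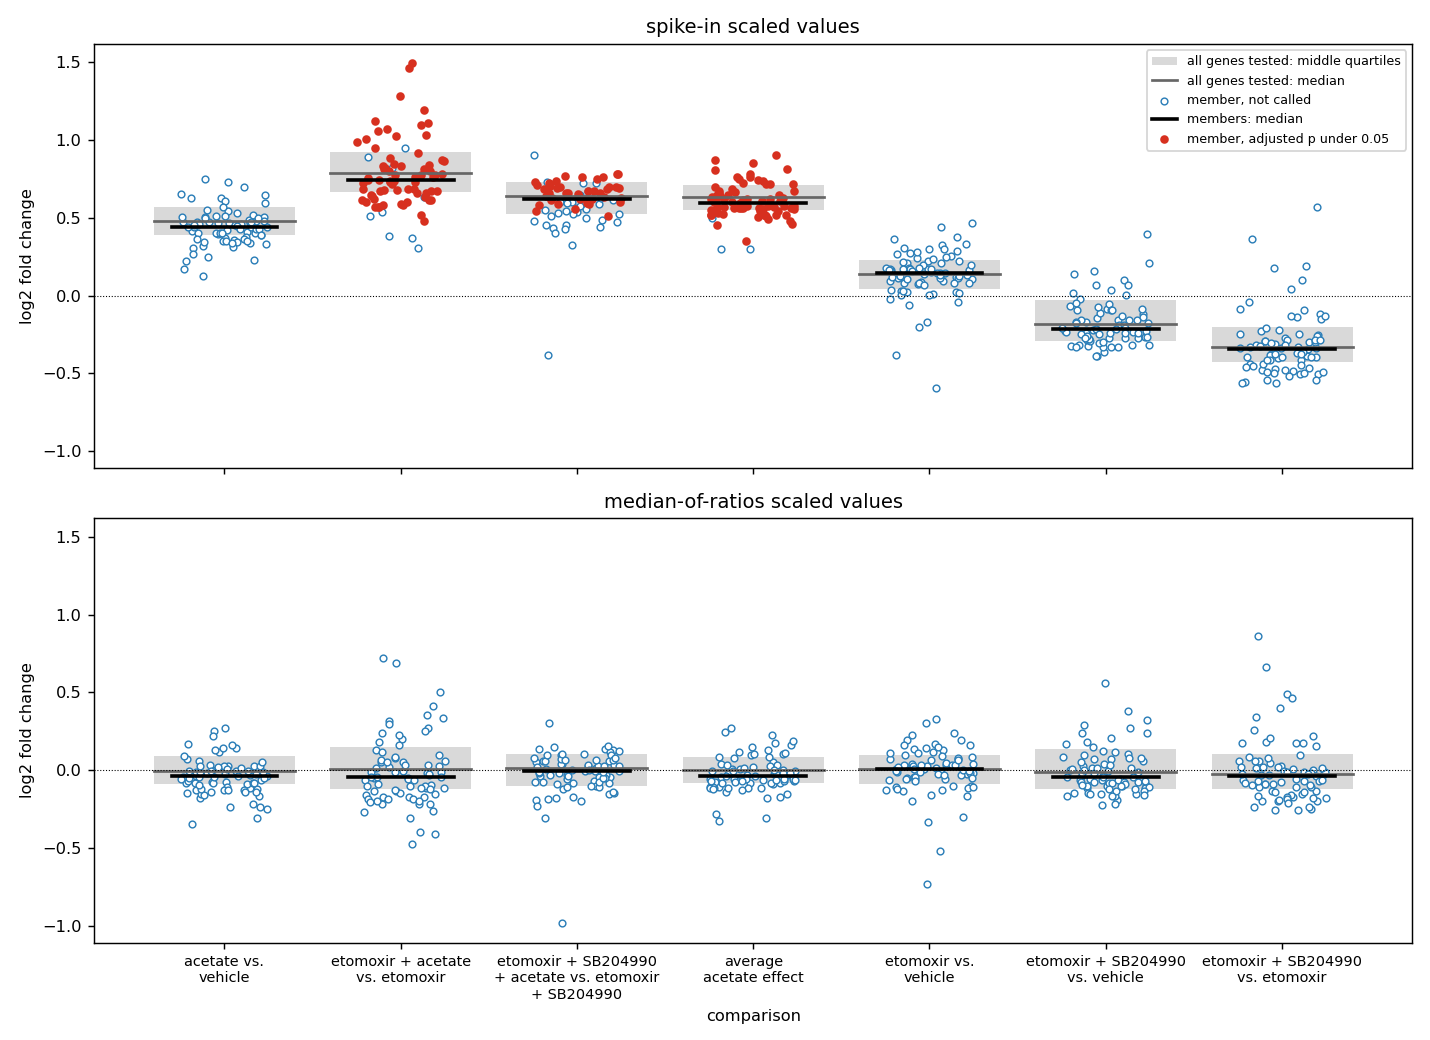
Log2 fold changes of the 78 tested members (points, red where the adjusted p is under 0.05) in 7 comparisons (x axis), with spike-in scaled values above and median-of-ratios scaled values below. Grey bands and lines give the middle quartiles and median of all genes tested, and black lines the members' median. The members follow the band of all genes in each comparison, at a median of 0.74 for etomoxir + acetate vs. etomoxir above and -0.05 below, and no member is called below.

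The inhibitors alone gave no called member on the named sums. In etomoxir- vs. vehicle-treated cells the median log2 fold change was 0.14, as for all genes, and the members ran from -0.59 to 0.47. The median was -0.08 with depth-free and 0.0060 with median-of-ratios scaling, and with 1 library left out it ran from 0.044 (without vehicle of set 1) to 0.28 (without vehicle of set 2). No member was called by limma, edgeR or DESeq2, against 0.0154% of all genes by limma. None had an unadjusted p under 0.05 by any of these tools, against 0.684%, 0.699% and 0.863% of all genes. Among members with a mean of at least 50 the highest values were those of Sdhd (0.47 ± 0.32), Ndufs1 (0.44 ± 0.31, and 0.26 without vehicle of set 1) and the accessory subunit Ndufb6 (0.38 ± 0.26), and among the lowest were Cox6b1 (-0.06 ± 0.27) and Ndufb4 (-0.02 ± 0.20). The 2 sets differed in sign for Cox6b1 (0.14 and -0.26). In etomoxir + SB204990 vs. vehicle the median was -0.21 (-0.18 over all genes, and 0.06 and -0.05 over the members with depth-free and median-of-ratios scaling). No member was called by limma, edgeR or DESeq2, against 0.00514% of all genes by limma. At an unadjusted p under 0.05 were 1, 1 and 2 members by these tools (1.28%, 1.28% and 2.56%, against 4.24%, 6.32% and 6.75% of all genes). The c-ring gene Atp5g2 had 899 and 888 with vehicle and 685 and 678 with both inhibitors, a log2 fold change of -0.39 ± 0.18 (adjusted p = 0.777, limma). Ndufb4 (-0.39 ± 0.20) and Atp5a1 (-0.36 ± 0.21) came next. Among members with a mean of at least 50 the highest values by name were those of Cox8a (0.21 ± 0.38), Ndufv1 (0.16 ± 0.42) and Cox4i1 (0.10 ± 0.31), and over their starts these 3 gave -0.28, -0.32 and -0.26. The signs by name rest on single libraries: with 1 library left out Cox8a ran from -0.45 to 0.87, Ndufv1 from -0.58 to 0.89 and Cox4i1 from -0.15 to 0.36, lowest without the etomoxir + SB204990 library of set 2 and highest without that of set 1. Without the etomoxir + SB204990 library of set 2, 4 members (5.13%, against 12.3% of all genes) were lower in this comparison, with a median of -0.42. Without that of set 1, 1 member (1.28%, against 5.47%) was higher and the median was 0.0044.

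Adding SB204990 to etomoxir gave lower values in most members on the spike-in scale, and medians of 0.16 with depth-free and -0.04 with median-of-ratios scaling. The median log2 fold change of etomoxir + SB204990 vs. etomoxir was -0.34 (-0.33 over all genes, and -0.56 and -0.12 over the members without the etomoxir + SB204990 library of set 2 or of set 1). No member was called by limma or edgeR (0% of all genes by limma) and 3 were lower by DESeq2 (3.85%, against 4.36% of all genes). At an unadjusted p under 0.05 were 17 members by limma and by edgeR (21.8%, against 21% and 22% of all genes). Sdhc, a membrane anchor of complex II, had 154 and 175 with etomoxir and 116 and 106 with both inhibitors, which gave -0.56 ± 0.24 (adjusted p = 0.234, limma). Over the starts 35 of 76 members were lower by limma, against 43.3% of all starts, with a median of -0.43 (-0.41 over all starts). These 35 included 4 of 4 complex II genes, 5 of 7 complex III genes, 3 of 3 c-ring genes, 2 of 7 complex I core subunits and none of the 3 restricted isoforms. Over the start of Sdhb the scaled signal was 1461 and 1571 with etomoxir and 1087 and 1167 with both inhibitors, with no overlap. On the named sums the number of lower members was 53 (67.9%, against 63.8% of all genes) when the etomoxir + SB204990 library of set 2 was left out. Leaving out that of set 1 gave 2 higher members (2.56%, against 4.94%). With median-of-ratios scaling no member was called, by name or over the starts.

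The size of the acetate effect was not shown to differ between the inhibitor backgrounds. The difference of the effect with etomoxir from that without inhibitor had a median of 0.31 over the members (0.30 over all genes), which became 0.57 with depth-free and 0.01 with median-of-ratios scaling, and ran from 0.20 (without vehicle of set 2) to 0.42 (without vehicle of set 1) with 1 library left out. The difference with both inhibitors had a median of 0.18 (0.16 over all genes), which became -0.02 with depth-free and 0.03 with median-of-ratios scaling. On the spike-in scale this median was -0.04 without the etomoxir + SB204990 library of set 1, where 1 member was called lower (1.28%, against 3.36% of all genes), and 0.39 when that of set 2 was left out, so its sign rests on single libraries. No member was called in either test by limma, edgeR or DESeq2, and 0% of all genes were called by limma. In the first test 1 member (1.28%) had an unadjusted p under 0.05 by each tool. The shares of all genes were 0.159%, 0.195% and 0.103% by limma, edgeR and DESeq2. In the second test no member had, against 0.0565%, 0.509% and 0.175% of all genes. Atp5g2 gave 0.23 ± 0.26 in the first (adjusted p = 0.774, limma) and 0.40 ± 0.26 in the second (adjusted p = 0.999, limma). With 1 library left out these values ran from 0.14 to 0.32 and from 0.19 to 0.62.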

How the data were processed

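H3K27ac ChIP-seq was measured in 12 libraries of 4T1 cells, with 2 libraries for each of 6 treatments. The authors aligned the reads to a merged human and mouse genome (GRCh38 and mm10) with the nf-core/chipseq workflow, and deposited the signal of each interval as a read count multiplied by a spike-in factor, which rests on the percentage of human reads and on the highest factor. Dividing by the factor gave whole reads, within 0.01 read, for 100% of the values. One library of each set has a factor of 1, so that the scale of the factors may differ between the sets. How the intervals were called and named is not given in the sources used here beyond that workflow. Reads in intervals ran from 7179165 to 16676442 per library.

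Deposited values were summed per gene name, and genes with a mean below 10 were left out. limma 3.58.1 (R 4.3.3) with an intensity trend was fitted to log2(value + 1) with 6 group means over all 12 libraries, so that the groups share 1 estimate of the spread, and p-values were adjusted over all genes tested by the Benjamini-Hochberg method at 0.05. edgeR 4.0.16 and DESeq2 1.42.0 on the recovered reads, with the spike-in factors as offsets or size factors, were alternatives, as were other scalings, filters, pseudocounts, blocks and left-out libraries. The intervals over GENCODE vM21 starts (mm10) were an alternative chosen after the data were seen. Members that share an interval then share its values.

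The members and gene lists were chosen with earlier results of these data known. The genes named were the 3 members with the largest called change in a comparison, the 3 highest and 3 lowest where the inhibitors were set against vehicle and in the relative acetate effect (each with a mean of at least 50), the strongest member of a role, the extremes in level, and a fixed set of core subunits and restricted isoforms. Others, such as those named for a motif or for the name of their interval, were chosen after their values were seen. One member and 1 marker gene are not reported by name here, and the member stays in the counts.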

Additional observations from a re-analysis of the deposited data

How the results depend on the processing

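The number of members called depended first on the scaling. With median-of-ratios, total-sum or depth-free scaling, it was 0 for acetate on etomoxir (69 on the spike-in scale), for acetate on both inhibitors (44) and for the average acetate effect (75), and it was also 0 with median-of-ratios scaling in the fit with a replicate block and over the starts. The first 2 of these scalings set the typical gene to no change. For acetate vs. vehicle (0) the number was 15 with DESeq2 (19.2%, against 27.6% of all genes), 8 with the interval nearest to the start (11.6%, against 26.7%), 43 over the starts (56.6%, against 68.7%) and 49 in a fit of the 4 libraries compared (62.8%, against 61.5%). For acetate on both inhibitors it was 72 over the starts (94.7%, against 92.9%) and 0 in such a fit (0% of all genes, with 1.28% of the members and 10.3% of all genes at an unadjusted p under 0.05). For etomoxir + SB204990 vs. etomoxir (0) it was 3 with DESeq2 (3.85%, against 4.36%) and 35 over the starts (46.1%, against 43.3%). The cause was not tested. Leaving out each library gave 0 to 45 members for acetate vs. vehicle, 18 to 74 for acetate on etomoxir, 0 to 74 for acetate on both inhibitors, 72 to 78 for the average, 0 to 4 for etomoxir + SB204990 vs. vehicle, 0 to 53 for etomoxir + SB204990 vs. etomoxir, and 0 to 1 for the difference with both inhibitors. The 72 of the average came without vehicle of set 1 and without etomoxir + SB204990 + acetate of set 2, the 78 without etomoxir + SB204990 of set 2, and the 74 of acetate on etomoxir without either etomoxir + SB204990 library.

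The library suffix was tried as a replicate block, which gave 5 members for acetate vs. vehicle (6.41%, against 20% of all genes, and none of either without the block), 71 and 53 for acetate on etomoxir and on both inhibitors (91% and 67.9%, against 83.1% and 65%), and 75 for the average (96.2%, against 90.3%). Correlations of deviations between libraries of 1 suffix ran from -0.228 to 0.607 (median -0.147), with 4 of 15 above 0.1, so the suffix was not taken to pair the libraries. The 3 highest were those among the vehicle, acetate and etomoxir + SB204990 treatments (0.564 to 0.607). For vehicle and acetate it was 0.564, which the fit without the block leaves out of acetate vs. vehicle.

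Average effects turned below 0 with median-of-ratios scaling for Cox7c (-0.28, also with the block, -0.27 with total-sum scaling and -0.21 over the start), Ndufb11 (-0.18, -0.17 with total-sum scaling), Sdha (-0.13, -0.12 with total-sum scaling), Ndufs1 (-0.0079, -0.11 over the start), Ndufv1 (-0.00087), Uqcrc1 (-0.0053), Cox4i1 (-0.060, -0.050 with total-sum scaling), Cox5a (-0.075, -0.065 with total-sum scaling, -0.068 over the start), Atp5a1 (-0.065, -0.054 with total-sum scaling, -0.058 over the start) and Ndufa4l2 (-0.056, -0.046 with total-sum scaling). Uqcrb gave 0.64 over its start in acetate on both inhibitors (-0.38 by name). Sdhb gave -0.20 in the average effect over its start with that scaling. In etomoxir + acetate vs. etomoxir, Sdhb gave -0.29 over its start with that scaling. Of these reversed values only that of Uqcrb was called. Over the named members and alternatives, 986 values kept their side of the threshold. Those of them called in the main fit kept their direction, and those not called moved by less than their error, whatever their sign. A further 92 lost the call and kept the direction, and 17 were newly called in the same direction. Uncalled values that moved by their error or more numbered 60, with or without a change of sign. A change of direction with a call in the main fit or the alternative was seen in 36.

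The etomoxir + SB204990 library of set 2 has the fewest reads in intervals (7179165), and Uqcrb and Cox7b2 had scaled signals of 54.0 and 34.0 there against 11.9 and 2.79 in set 1.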
